A study of Mus musculus with 9 samples.

Results

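Nampt encodes nicotinamide phosphoribosyltransferase, the rate-limiting enzyme of NAD salvage and the target of the inhibitor FK866. It was followed here with 9 other genes of NAD metabolism, chosen by name for their roles, with earlier results of these data known. They were Nmnat1 and Nmnat3 (which adenylate nicotinamide mononucleotide), Nmrk1 (nicotinamide riboside kinase), Naprt and Nadsyn1 (the route from nicotinic acid), Nadk and Nadk2 (NAD kinases), Nnmt (nicotinamide methylation) and Slc25a51 (the mitochondrial NAD carrier). All 10 genes were found among the 55487 genes of the deposited count table, and all 10 passed the filter on low counts that left 15237 genes for testing. The cells were B16F10, an established melanoma line of the mouse, kept for 6 h in 1 of 3 conditions. The groups were medium alone (media), medium with interferon gamma (IFNγ, a cytokine of T cells and natural killer cells) at 50 ng/mL, and medium with the same dose of IFNγ plus 50 nM FK866. Each group has 3 libraries, numbered 3, 4 and 5 behind the word Control in their titles, whatever the treatment. The labels leave the meaning of these numbers unstated, and also whether replicates were grown as separate cultures. All p-values therefore rest on the spread between libraries, which may be technical. The treatment protocol mentions mouse and human IFNγ and gives a source for the mouse protein. A group with FK866 alone was not analysed here, so every FK866 value below was taken in the presence of IFNγ in a single cell line.

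NAD carries electrons in central metabolism and is also consumed by sirtuins, poly-ADP-ribose polymerases and other enzymes, which release nicotinamide. NAMPT joins nicotinamide to a phosphoribosyl group to make nicotinamide mononucleotide (NMN), and the NMNAT enzymes convert NMN to NAD. The NMRK kinases make NMN from nicotinamide riboside, and NAPRT with NAD synthetase (NADSYN1) makes NAD from nicotinic acid in the Preiss-Handler route. NAD kinases turn NAD into NADP, in the cytosol by NADK and in mitochondria by NADK2, while SLC25A51 brings NAD into mitochondria. NNMT diverts nicotinamide from salvage by methylating it with the methyl group of S-adenosylmethionine.

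The libraries held 15317003 to 18466972 counts. All 8 melanocytic marker genes examined (Mlana, Pmel, Tyr, Tyrp1, Dct, Mitf, Sox10 and Gpnmb) were detected, and their summed level was 22520 to 27700 CPM (read counts scaled to a common library size, with the trimmed mean of M-values, TMM) over the 9 libraries. The 4 keratinocyte markers were at 0 in every library, 4 of 8 leukocyte markers and 2 of 3 endothelial markers were also at 0, and the summed leukocyte and endothelial levels did not pass 12.15 and 0.9734 CPM. Irf1, an interferon-induced transcription factor used as a check of the IFNγ labels, lay at 13.95 to 20.56 CPM in media, at 761.2 to 824.9 CPM with IFNγ and at 718.4 to 794.5 CPM with IFNγ and FK866. Libraries with the same number deviated together from their group means over all genes, so a second fit, in which the number enters as a block, was set beside the fit without it. The fit without the block is the one reported unless the block is named. It does not use the pairing by number and counts differences between numbers as spread. For IFNγ against media, its median standard error of the log2 fold change over all genes tested was 0.213. With the block it was 0.107, so most intervals printed without the block are the wider ones.

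Within the pathway, Nampt was the most abundant transcript in all 3 conditions. Levels between genes were compared as CPM per kilobase of exon, over the union of annotated exons. In media, Nampt stood at 38.0 ± 6.61 CPM per kilobase (SD, n = 3), Nadk at 25.8 ± 1.35, and Slc25a51 at 18.1 ± 2.49. These 3 were separated from each other and from the rest in every media library. Then came Nadk2 at 4.02 ± 0.276 CPM per kilobase, Nmnat1 at 3.90 ± 0.617, Nnmt at 2.41 ± 1.56, Nadsyn1 at 2.06 ± 0.440 and Nmnat3 at 1.98 ± 0.201, and no neighbours among these 5 were separated beyond the spread of the libraries. Nmrk1 (0.886 ± 0.158 CPM per kilobase) and Naprt (0.708 ± 0.262) were lowest and overlapped each other.

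With IFNγ the order changed at a single place: Nnmt moved from rank 6 to rank 4, ahead of Nadk2 and Nmnat1, at 7.65 ± 2.76 CPM per kilobase. Its level was still separated from that of Slc25a51 above it and not from that of Nadk2 below it. With FK866 added, Nnmt kept rank 4 at 8.31 ± 3.66 CPM per kilobase, and Naprt and Nmrk1, which overlapped, changed places. The distance from Nampt to Nadk, the next gene, widened from a ratio of 1.47 in media to 3.90 with IFNγ and 4.38 with IFNγ and FK866. Dividing by the longest transcript instead placed Nmnat3 at rank 5 in media and left the first 4 and the last 2 genes where they were. With FK866, it put Nmrk1 back before Naprt. Per-length levels assume reads spread over the whole transcript, and the library kit is not given in the sources used here.

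**Figure D1:**
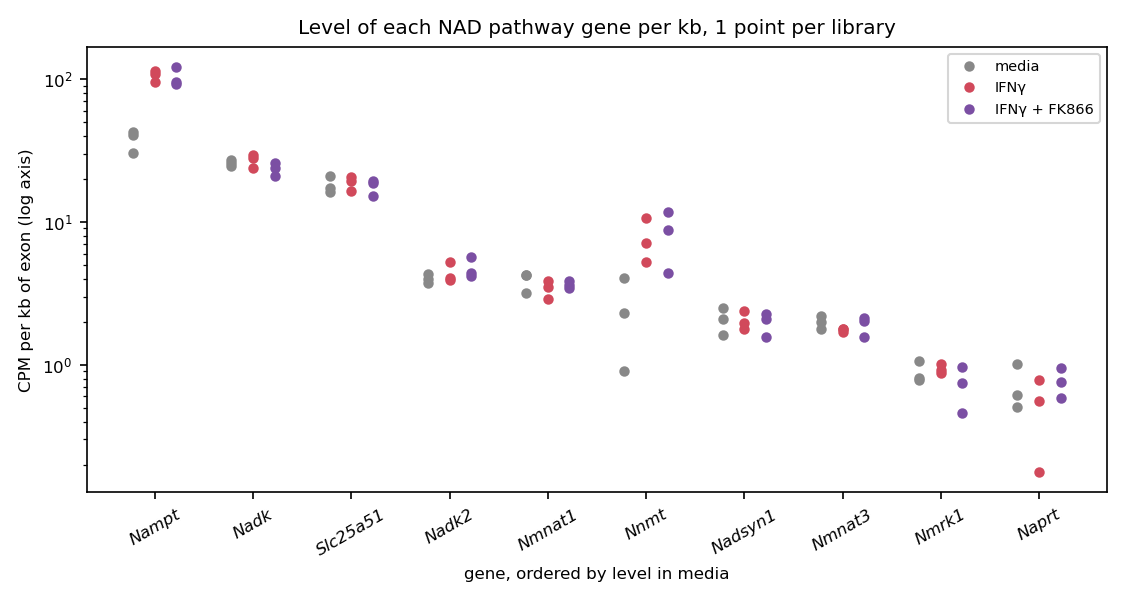
Levels of the 10 NAD genes in CPM per kilobase of exon (log axis), 1 point per library and 1 colour per condition. Nampt leads in all 3 conditions, Nadk and Slc25a51 follow, and Nnmt moves up to rank 4 with IFNγ.

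IFNγ raised the transcript of the salvage enzyme and, in the fit that uses the library number, that of the nicotinamide methyltransferase, while the other 8 genes did not pass the test. Nampt rose 2.79-fold, and Nnmt rose 3.36-fold in the blocked fit. Of the 10 genes 1 (Nampt) was called at an adjusted p below 0.05, beside 3.3% of the 15237 genes tested (503 genes). With the block 2 of 10 (Nampt and Nnmt) were called, beside 14.3% of all genes (2173 genes). The median log2 fold change of the 10 genes was 0.0644, against -0.00835 for all genes tested.

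Nampt in media was at 154, 206.7 and 215.9 CPM in libraries 3, 4 and 5. With IFNγ it was at 485.4, 577.4 and 548.5 CPM, so that every treated library lay above every media library. In media, library 3 was the lowest, and it was also the lowest of the 3 with IFNγ. The ratio within a number was 3.15, 2.79 and 2.54. The log2 fold change was 1.48 (standard error 0.16, 95% interval 1.12 to 1.84, adjusted p = 5.04e-04, edgeR quasi-likelihood test with Benjamini-Hochberg adjustment), rank 126 of the genes tested by p. In bulk RNA, a change in the number of cells with a transcript and a change in the RNA per cell cannot be told apart. By abundance, Nampt moved from rank 857 to 1265 among all genes in the media libraries to rank 175 to 233 with IFNγ. Its share of the summed per-length level of the 10 genes was 33.6% to 42.5% in media and 57.0% to 66.1% with IFNγ.

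**Figure D2:**
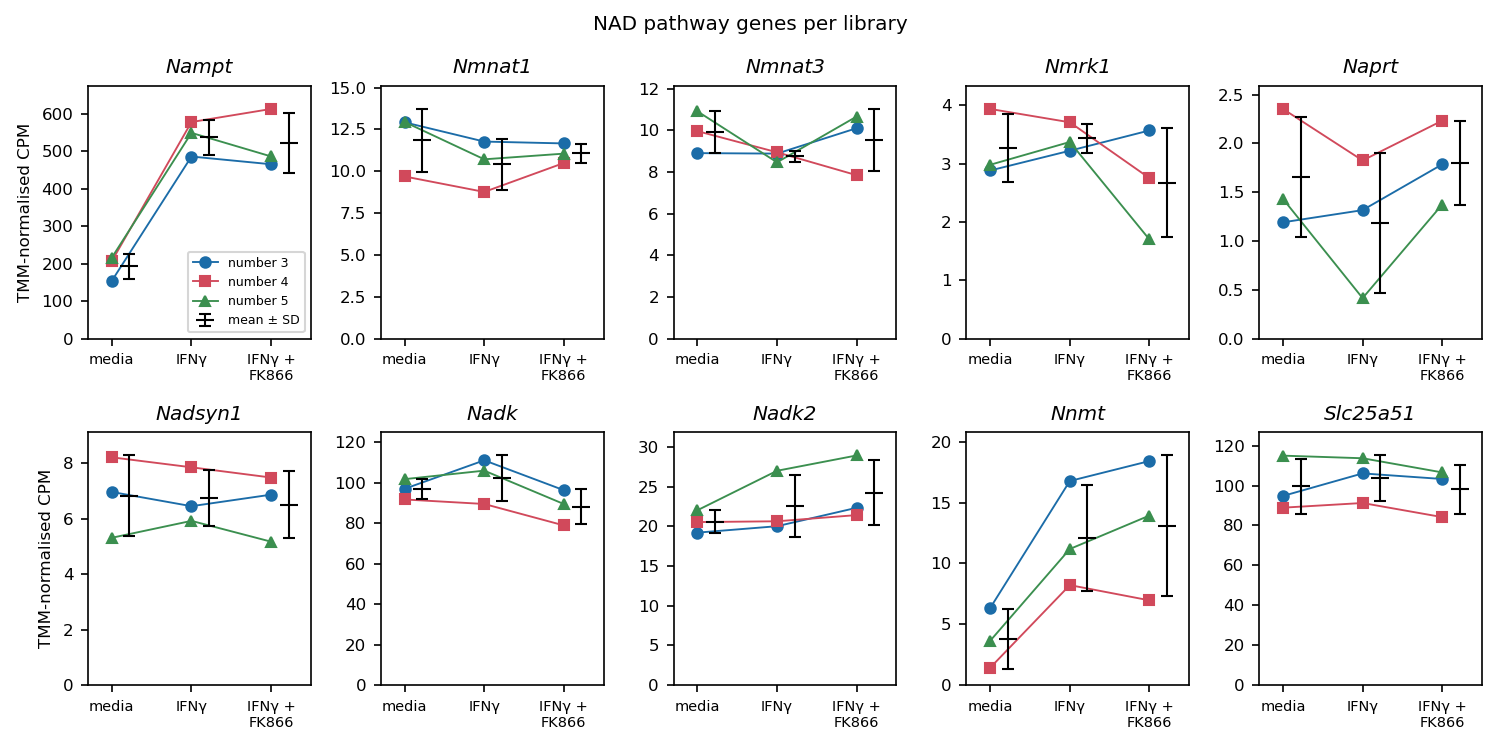
Level of each of the 10 genes in each library (TMM-normalised CPM, linear axes from 0), by condition. Lines join libraries of 1 number, and bars give mean ± SD. The media points of Nampt and of Nnmt lie below all of their IFNγ points, and the IFNγ points of the other 8 genes overlap those of media.

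The bases before the annotated start of Nampt are shown because Nampt is the member called in both fits, beside those of Nadsyn1 and Nmnat3, which were not called in any comparison of treatments. RefSeq (GRCm38.p6) gave entries for 6 of the 10 genes, some with a second start (8 entries in all). Naprt, Nadk2, Nnmt and Slc25a51 had no entry. Printed are the 250 bases before the start in the 3 entries where no annotated exon falls in that window: chr12:32820085-32820334 (plus strand) for Nampt, chr7:143822853-143823102 (minus strand) for Nadsyn1 and chr9:98296320-98296569 (plus strand) for Nmnat3. The GENCODE M21 gene model of Nampt begins upstream of this window, at position 32819545 of chromosome 12, so the window lies in an intron of that longer model. The same holds for Nmnat3, whose GENCODE model begins at position 98287435 of chromosome 9. Each runs 5′ to 3′ in the direction of the gene, with GC boxes (GGGCGG on either strand) in capitals.
Nampt: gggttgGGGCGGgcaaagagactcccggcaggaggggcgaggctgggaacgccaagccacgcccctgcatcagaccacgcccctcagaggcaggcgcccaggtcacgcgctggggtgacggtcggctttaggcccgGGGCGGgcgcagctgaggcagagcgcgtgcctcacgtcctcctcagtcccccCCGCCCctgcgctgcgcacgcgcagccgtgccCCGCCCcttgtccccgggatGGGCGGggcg
Nadsyn1: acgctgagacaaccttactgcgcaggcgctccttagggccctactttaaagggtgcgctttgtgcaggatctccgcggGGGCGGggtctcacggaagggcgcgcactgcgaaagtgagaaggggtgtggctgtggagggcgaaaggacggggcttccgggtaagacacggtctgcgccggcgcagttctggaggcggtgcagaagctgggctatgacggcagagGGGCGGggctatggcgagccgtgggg
Nmnat3: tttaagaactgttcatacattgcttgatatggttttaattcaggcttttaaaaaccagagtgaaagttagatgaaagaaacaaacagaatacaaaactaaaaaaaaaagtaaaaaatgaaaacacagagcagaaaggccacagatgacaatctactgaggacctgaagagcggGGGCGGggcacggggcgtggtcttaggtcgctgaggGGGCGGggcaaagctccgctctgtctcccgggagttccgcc
Nampt had 5 GC boxes in this window, beginning 244, 114, 62, 30 and 10 bases before the start, and 5 or more were found in 1.93% of the 32851 mouse promoters of the same length. Nadsyn1 had 2 (172 and 26 bases before the start) and Nmnat3 had 2 (77 and 41 bases), and at least 1 was found in 32.7% of promoters. The Nampt window held 27 CpG dinucleotides at 75.6% G and C, against medians of 6 and 52.4% over all promoters. That of Nadsyn1 held 23 at 66.0% and that of Nmnat3 held 9 at 45.6%. Of the entries not printed, those of Nmnat1 held 24 at 69.2% and 23 at 67.6%, and that of Nmrk1 held 21 at 69.2%. The Nadk entries held 4 at 46.8% and 18 at 66.0%. The STAT motif TTCNNNGAA, which 7.02% of promoters hold on either strand, and a short interferon response motif, 2 copies of GAAA with 2 bases between them, which 2.98% hold on either strand, had no match in any of the 8 entries, Nampt included. The E-box CACGTG, held by 6.02%, was found in 1 entry, that of the second start of Nadk, 40 bases before it. These are letter matches in 1 short window and describe no binding.

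Nnmt was at 6.33, 1.42 and 3.64 CPM in media libraries 3, 4 and 5, and at 16.8, 8.21 and 11.2 CPM with IFNγ. Library 3 was the highest and library 4 the lowest in both groups, and all 3 treated libraries were above all 3 media libraries. The ratio within a number was 2.65, 5.77 and 3.07. Nnmt was not called without the block (log2 fold change 1.67, standard error 0.524, adjusted p = 0.181, edgeR), and was called with the replicate block (1.75, 95% interval 1.38 to 2.12, adjusted p = 2.28e-07, edgeR). DESeq2 gave an adjusted p of 0.021 without a block, and edgeR without a filter on low counts gave 0.044. Nnmt is also expressed by fibroblasts. The 6 fibroblast markers examined summed to 13.4 to 18.8 CPM in media and 8.55 to 11.7 CPM with IFNγ. Of the 3 that were tested, Col1a2 (5.44 to 1.68 CPM, adjusted p = 0.00952, edgeR) fell, and Pdgfra and Pdgfrb were not called. Col1a1, Col3a1 and Dcn were below the filter, at 68, 3 and 3 counts in all. Whether any fibroblasts were present, and whether they had a part in the Nnmt result, was not tested.

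Nmnat1, which makes NAD in the nucleus, was lower with IFNγ in all 3 pairs by number, but overlapped between groups and was not called. It was at 12.9, 9.69 and 12.9 CPM in media and 11.8, 8.76 and 10.7 CPM with IFNγ, a log2 fold change of -0.19 (95% interval -0.58 to 0.21). Nmnat3, the mitochondrial form, was at 8.90 to 10.9 CPM in media and 8.46 to 8.94 CPM with IFNγ (log2 fold change -0.18, interval -0.56 to 0.20). The sign was the same in its 3 pairs, with a ratio of 0.997, 0.898 and 0.775. An intron of Nmnat3 holds a processed pseudogene, Gm28530, to which 105 counts were assigned against 1427 for Nmnat3.

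The riboside kinase Nmrk1 was at 2.88 to 3.94 CPM in media and 3.22 to 3.71 CPM with IFNγ (log2 fold change 0.07, interval -0.58 to 0.73). In the Preiss-Handler route, Nadsyn1 was at 5.31 to 8.21 CPM and 5.92 to 7.85 CPM (log2 fold change -0.02, interval -0.54 to 0.50). Naprt was near the limit of the depth, with 7 to 43 counts in a library. Its exons overlap those of Eef1d on the same strand, a gene with 25865 counts, so its reads are uncertain, and the interval of its log2 fold change (-1.62 to 0.63) admits more than a 2-fold change in the downward direction. For these 3 genes the groups overlapped.

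The NAD kinases and the mitochondrial carrier were measured more closely. Nadk was at 91.7 to 101.7 CPM in media and 89.4 to 111 CPM with IFNγ, a log2 fold change of 0.08 (95% interval -0.18 to 0.33). Nadk2 was at 19.19 to 22.01 CPM and 20.0 to 27.0 CPM (0.13, interval -0.24 to 0.50). Slc25a51 was at 88.9 to 115.0 CPM and 91.3 to 113.7 CPM (0.06, interval -0.25 to 0.37). For each of these 3 genes the interval excluded a change as large as the 2.79-fold of Nampt. The intervals of Nmnat1, Nmnat3, Nmrk1 and Nadsyn1 excluded such a change too.

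With FK866 added to IFNγ, none of the 10 transcripts passed the test, that of its target Nampt included. Nadk, lower in each of the 3 pairs, had the lowest p among them. Nampt stayed near its IFNγ level in all 3 libraries. Without the block, 0 of 10 genes were called, beside 0% of the 15237 genes tested, and 0 of 10 with the block, beside 0.0197% (3 genes). Unadjusted p-values below 0.05 were found for 0 of the 10 genes and for 88 of all genes (0.578%) in the fit without the block. DESeq2, which called 0 genes too, gave 61. With the block they were found for 1 of the 10 genes (Nadk) and for 573 of all genes (3.76%). Both shares lie below what a threshold of 0.05 would give with no true difference. The fit without the block counts differences between numbers as spread. Its median standard error over all genes was 0.212, against 0.106 with the block. Its low share therefore does not show that FK866 left transcripts unchanged.

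Nampt with IFNγ and FK866 was at 464.8, 612.3 and 485.7 CPM in libraries 3, 4 and 5, against the IFNγ values of 485.4, 577.4 and 548.5 CPM. It was lower in pairs 3 and 5 and higher in pair 4. The log2 fold change was -0.04 (95% interval -0.39 to 0.31), and -0.05 with the replicate block (interval -0.20 to 0.11). The interval without the block thus excluded a rise of Nampt RNA above 1.24-fold, and the blocked interval a rise above 1.08-fold. FK866 acts on the enzyme, and neither NAD nor enzyme activity was measured in these files.

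Nadk was lower with FK866 in all 3 pairs. Its levels with IFNγ were 111, 89.4 and 105.9 CPM and with FK866 added 96.2, 78.8 and 89.4 CPM, a ratio of 0.867, 0.882 and 0.844. The groups overlapped, since library 4 was the lowest in both. The log2 fold change was -0.21 (95% interval -0.47 to 0.05, unadjusted p = 0.0959, edgeR), and with the replicate block -0.21 (interval -0.34 to -0.08, unadjusted p = 0.00322, rank 24 of 15237). After Benjamini-Hochberg adjustment over all genes the blocked p was 0.987 (edgeR), so Nadk was not called.

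Nnmt was at 18.4, 6.96 and 13.9 CPM with FK866, against 16.8, 8.21 and 11.2 CPM with IFNγ alone, higher in 2 of 3 pairs (log2 fold change 0.12, 95% interval -0.99 to 1.23, and 0.08 with the replicate block, interval -0.24 to 0.40). Nadk2 was higher in all 3 pairs, with a ratio of 1.12, 1.04 and 1.07, and Slc25a51 was lower in all 3, with a ratio of 0.974, 0.923 and 0.938. Neither was called, and for both genes the groups overlapped. Nmrk1 had its lowest value of all libraries with FK866, at 1.70 CPM in library 5, from 26 counts. Its log2 fold change was -0.36 (interval -1.02 to 0.30). Naprt was higher in 3 of 3 pairs (0.61, interval -0.51 to 1.73), again at 7 to 43 counts in a library. Nmnat1 (0.09, interval -0.31 to 0.48), Nmnat3 (0.12, interval -0.26 to 0.50) and Nadsyn1 (-0.05, interval -0.57 to 0.47) had no common sign over the pairs.

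**Figure D3:**
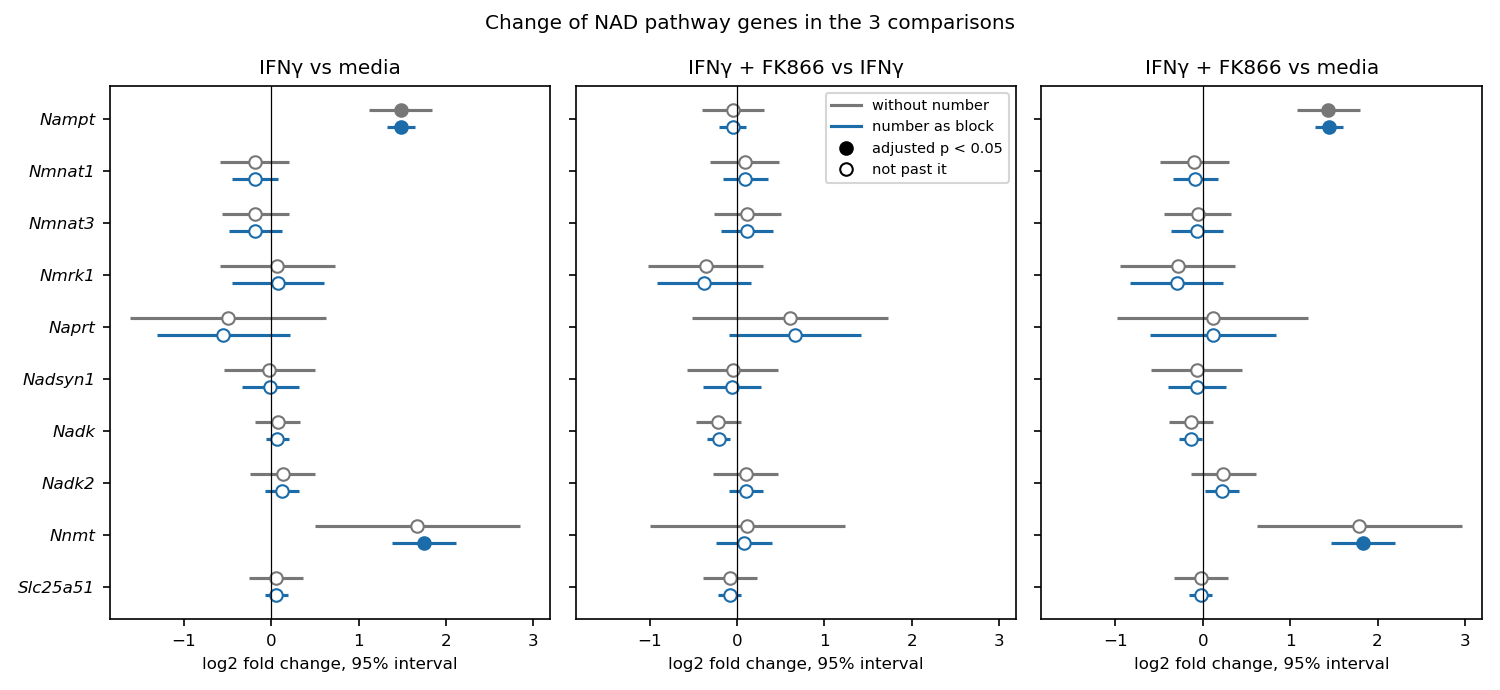
Log2 fold changes of the 10 genes in the 3 comparisons with their 95% intervals, in grey without and in blue with the library number as a block, filled where the adjusted p was below 0.05. Nampt at 1.48 and 1.44 and, with the block, Nnmt at 1.75 and 1.83 stand to the right of 0 in both comparisons with media, and no point is filled for FK866 added to IFNγ.

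Against media, cells with IFNγ and FK866 had more Nampt RNA (2.71-fold) and, in the blocked fit, more Nnmt RNA (3.55-fold). This comparison shares its media libraries with the first and its FK866 libraries with the second, so it is no separate evidence. Of the 10 genes 1 (Nampt) was called, beside 3.36% of all genes (512 genes), and 2 (Nampt and Nnmt) with the block, beside 16.1% (2459 genes). The log2 fold change of Nampt was 1.44 (95% interval 1.08 to 1.80, adjusted p = 6.14e-04, edgeR), with a ratio of 3.02, 2.96 and 2.25 in pairs 3, 4 and 5. That of Nnmt was 1.79 (adjusted p = 0.138, edgeR) and 1.83 with the replicate block (interval 1.47 to 2.20, adjusted p = 9.36e-08, edgeR). Both genes lay above media in all 3 libraries without overlap. Fibroblast markers summed to 8.31 to 13.4 CPM in this group. Nampt took 56.7% to 69.2% of the summed per-length level of the 10 genes here. With the block, 2 more genes had an unadjusted p below 0.05 but were not called: Nadk2 (log2 fold change 0.22, adjusted p = 0.118, edgeR) and Nadk (-0.14, adjusted p = 0.162, edgeR).

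More of these genes were called between library numbers than between treatments, and the same was so over all genes tested. Across numbers 3, 4 and 5, in the fit with the number as a term, 6 of 10 genes were called, close to the 51.8% of all genes tested (7895 genes). Nnmt differed most, with a range of 1.40 on the log2 scale (2.64-fold, adjusted p = 4.17e-06, edgeR), number 3 highest and number 4 lowest. Nampt had the opposite order at its ends, number 4 highest and number 3 lowest, with a range of 0.36 (adjusted p = 0.0018, edgeR). As a result the per-length ratio of Nampt to Nnmt in media was 7.59, 45.3 and 18.5 in libraries 3, 4 and 5, and with IFNγ 9.03, 21.9 and 15.3. Library 4 had the highest ratio in all 3 groups.

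Slc25a51 differed over the numbers by 0.34 on the log2 scale (adjusted p = 4.41e-04, edgeR), with number 5 highest and number 4 lowest. Nadk2 was highest in number 5 (range 0.34), Nadk highest in number 3 and lowest in number 4 (range 0.23), and Nadsyn1 highest in number 4 and lowest in number 5 (range 0.52). The calls of Nadk, Nadk2 and Nadsyn1 were lost when both IFNγ groups were not in the fit together, which left 3 of 10 genes called (Nampt, Nnmt and Slc25a51). The call of Nadsyn1 was lost in most alternatives. The titles do not say what the numbers stand for, so culture, day and handling cannot be told apart.

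Among other genes of NAD metabolism, almost all calls between treatments needed the block, which raised the calls over all genes too. The genes called belong to different steps. The lists examined were 4: other NAD biosynthesis and precursor genes, NAD turnover and repair, NADP-reducing enzymes, and nicotinamide methylation partners. The list of NADP-reducing enzymes also holds folate enzymes that do not themselves reduce NADP, such as Mthfd1l. With IFNγ and without the block, 0 of 9, 0 of 17, 0 of 15 and 0 of 9 tested genes were called in these lists. With the block, 1 of 9 rose, 1 of 17 rose, 1 rose and 1 fell of 15, and 1 of 9 fell, beside 14.3% of all genes. List medians of the log2 fold change with the block were -0.15, 0.02, -0.01 and -0.01, against -0.01 for all genes.

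Pnp, purine nucleoside phosphorylase, which can split nicotinamide riboside into nicotinamide and a sugar phosphate, was at 6.46 ± 1.26 CPM in media and 12.9 ± 6.80 CPM with IFNγ (SD, n = 3). Its log2 fold change was 0.99 without the block (adjusted p = 0.408, edgeR) and 0.92 with it (adjusted p = 3.36e-04, edgeR). Its near-identical neighbour Pnp2 makes the assignment of its reads uncertain. Nudt13, a mitochondrial pyrophosphatase of NADH and NADPH, was at 9.71 ± 1.74 CPM and 17.9 ± 5.04 CPM (0.87 with the block, adjusted p = 1.54e-05, edgeR). Me3, mitochondrial malic enzyme, which makes NADPH, was at 5.48 ± 1.84 CPM and 11.2 ± 2.68 CPM (1.04 with the block, adjusted p = 6.49e-05, edgeR). Genes that fell with the block were Mthfd1l, of mitochondrial folate metabolism, from 302.1 ± 45.1 to 248.3 ± 27.2 CPM, and Mat2a, which makes S-adenosylmethionine, from 507.8 ± 17.0 to 426.4 ± 33.0 CPM (log2 fold changes -0.28 and -0.26).

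In cells with FK866 and IFNγ against media, Me3 was the 1 list gene called without the block (log2 fold change 1.19, adjusted p = 0.0494, edgeR). The call was lost in a fit of the compared groups alone (adjusted p = 0.0738, edgeR) and without any 1 library other than media library 3 (up to 0.15). With the block 1 rose and 2 fell of 9 (Pnp; Nmrk2 and Slc29a1), 1 rose of 17 (Nudt13), 2 rose and 2 fell of 15 (Me3 and Aldh1l1; Mthfd1l and Idh1) and 2 fell of 9 (Mat2a and Mtap), beside 16.1% of all genes. Mtap, which recycles methylthioadenosine, had a log2 fold change of -0.33 with the block, and Nmrk2, the other riboside kinase, one of -1.63 from 3 to 17 counts in a library. FK866 added to IFNγ gave 0 calls in all 4 lists in both fits.

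The route from tryptophan was detected in part. Afmid lay at 3.52 to 6.71 CPM, Haao at 0.208 to 1.44 CPM, and Ido2, which like Ido1 can open the route, had 42 counts in all. Ido1 and Tdo2, which open it, Kynu and Qprt, which lead it to NAD, and Nt5e, an ectonucleotidase that acts on NMN, were at 0 counts in all 9 libraries, IFNγ included, and Kmo had 2 counts in all. A count of 0 allows up to 0.0592, 0.0608 and 0.0578 CPM over the media, IFNγ and FK866 groups (3 counts, for counting error only). Bst1, an NAD glycohydrolase, and Mat1a, the liver form of Mat2a, were at 0 too.

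**Figure D4:**
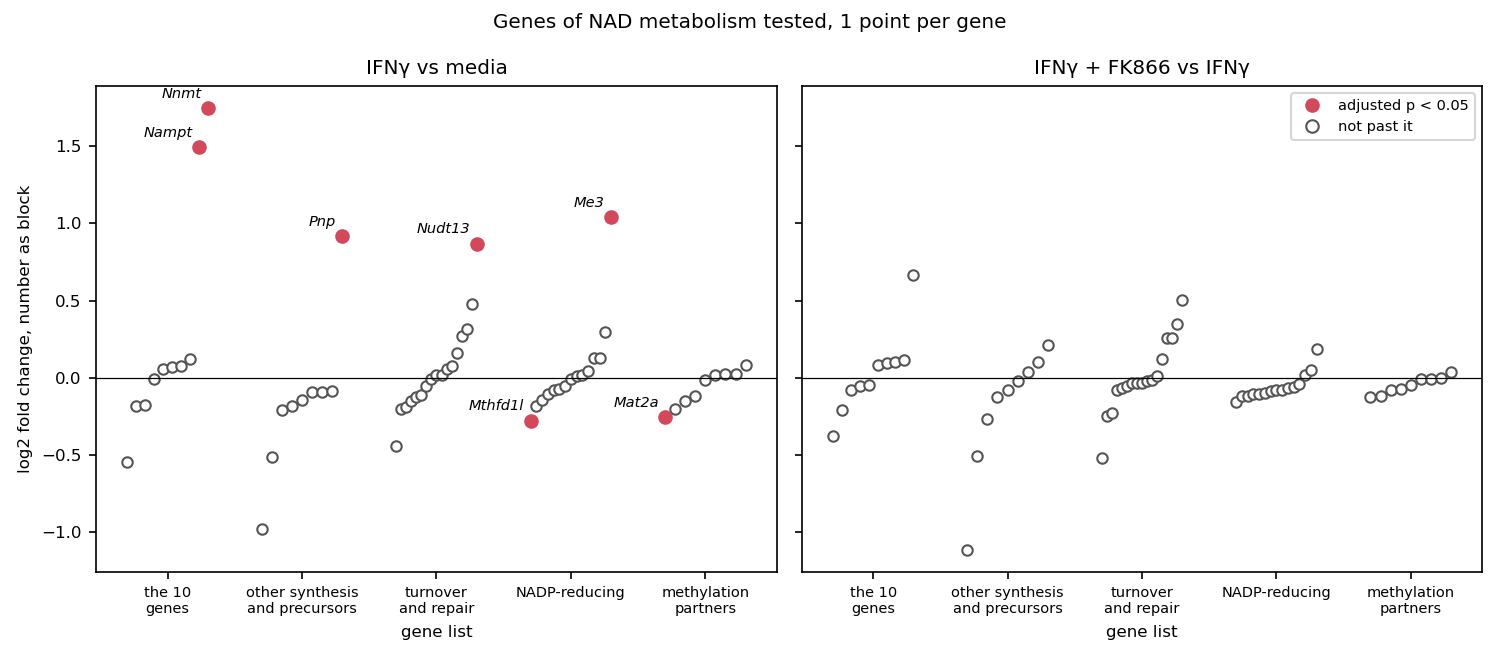
Log2 fold changes of the tested genes of the 4 further lists and of the 10 genes, 1 point per gene, from the blocked fit, for IFNγ against media and for FK866 added to IFNγ. Points past the adjusted p of 0.05 are filled: Nampt, Nnmt, Pnp, Nudt13 and Me3 lie above 0 with IFNγ and Mthfd1l and Mat2a below it, and none is filled for FK866 added to IFNγ.

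The genes whose levels were most like those of Nampt over the 9 libraries were, by Pearson correlation of log2 (CPM + 1) among 8745 genes with a mean of at least 10 CPM, Lmo4 (0.994), Trim21 (0.993), Furin (0.991), Prph (0.988), Tcf7 (0.986) and Irgm1 (0.985). All of them share the step between media and the IFNγ groups, which sets most of this likeness. Furin, a proprotein convertase, went from 79.2 ± 15.3 to 175.8 ± 26.2 CPM, and Lmo4, a LIM-only transcriptional cofactor, from 44.2 ± 10.5 to 129.1 ± 11.5 CPM. Irgm1, an immunity-related GTPase, went from 19.5 ± 5.87 to 1460 ± 196 CPM. Within the groups, the deviations from the group means were most like those of Nampt in Atpaf2 (0.997), Sin3a (0.987), Cpd (0.981), Wdr3 (0.979), Erbb2 (0.978) and Ywhae (0.975), which share the library numbers. Both lists hold the highest of 8745 correlations over 9 libraries, so values near 1 come in part from that selection. By Spearman correlation 2 of the first 6 genes (Tcf7 and Irgm1) and 4 of the second 6 remained among the 6 most alike, with Lmo4 and Furin at rank 21 and Cpd and Ywhae at rank 32. Of the 9 other NAD genes only 4 (Nmnat1, Nadk, Nadk2 and Slc25a51) passed 10 CPM and were compared, and none of these 4 was on either list. Nadk2 had the highest value among them, at 0.427 for levels and 0.0732 for deviations. Nnmt, which rose with IFNγ in all 3 pairs by number, fell below the cut of 10 CPM. Its likeness to Nampt was therefore not measured.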

How the data were processed

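Counts of reads per Ensembl gene were deposited by the authors as 1 table with a column per library. The table has no values per cell, so it was treated as bulk RNA, whereas the series text mentions the 10x platform. The submitters' processing notes list the tools DESeq2 1.30.1, featureCounts 1.6.3, cutadapt 1.16 and STAR 2.7.6a without their roles, and the builds mm10 and GRCm38. Strand setting, annotation release and duplicate handling were not given in the sources used here, so reads of overlapping antisense genes cannot be told apart.

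Symbols and coordinates came from GENCODE M21 (GRCm38), with 55141 of 55487 identifiers matched. No library had a count for 28707 genes. Replicates differed by more than counting error (chi-square over degrees of freedom 21.59 to 37.22), so no library was merged. In R 4.3.3, the quasi-likelihood F test of edgeR 4.0.16 was fitted to all 9 libraries after filterByExpr and TMM scaling. Adjustment (Benjamini-Hochberg) ran over 15237 genes with 99.89% of the counts. Standard errors and 95% intervals come from the F statistic. DESeq2 1.42.0 and limma 3.58.1 (voom) were alternatives, with other scalings, no filter, libraries left out and the replicate block. Fits were tested on simulated counts that held no effect of the library number, with changes only in genes of higher counts. That test cannot decide between the fits with and without the block, and it does not cover genes with few counts.

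The numbers in the titles were taken to pair the libraries. The reason was that deviations from the group mean had r = 0.625 to 0.783 in the 9 same-number pairs. The 18 others had r = -0.533 to -0.156. Where same-number values are positive, centring on group means makes the others negative on average, so these add no separate evidence. Blocked values are printed where they change a call or a count. Promoter sequences are RefSeq's (GRCm38.p6).

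The 10 genes and the lists were chosen with earlier results of these data known. Named genes are the 10, Irf1, every called member of the 4 pathway lists (up to 5 a list), and the 6 genes most like Nampt by each of 2 correlations, leaving out predicted genes, Riken clones and pseudogenes.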

Additional observations from a re-analysis of the deposited data

How the results depend on the processing

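Nampt stayed called in both comparisons with media under every alternative run, at log2 fold changes of 1.34 to 1.58 (IFNγ) and 1.301 to 1.59 (IFNγ with FK866). The number of the 10 genes called moved from 1 to 2, by Nnmt, with the replicate block, with DESeq2 and without a filter on low counts, in both. The replicate block called 2173 and 2459 genes and DESeq2 757 and 775. With single libraries left out there were 314 to 487 and 322 to 479 genes, the lowest for IFNγ without media library 4 or 5 or IFNγ library 4, and for IFNγ with FK866 without media library 4 or FK866 library 4 (328). Leaving out all libraries of number 3, 4 or 5 from the blocked fit, chosen after seeing the data, gave 1883, 1402 and 1830 genes for IFNγ and 2602, 1398 and 1889 for IFNγ with FK866, and 2 of the 10 genes each time. For FK866 added to IFNγ the replicate block called 3 genes, and 8, 1 and 3 without number 3, 4 or 5. Across the numbers, 3 of the 10 genes were called without the IFNγ group (4994 of all genes) or without the FK866 group, and 4 to 7 with single libraries left out. The cause was not tested. The replicate block changed no other call among the 10 genes.

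Log2 fold changes that missed the test changed sign in places. With single libraries left out, IFNγ against media ranged from -0.17 to 0.13 for Nadsyn1, -0.013 to 0.23 for Nmrk1, -0.017 to 0.21 for Nadk2 and -0.018 to 0.18 for Slc25a51. In the block without number 3 or 4, Nadsyn1 gave 0.044 and 0.018. FK866 added to IFNγ ranged from -0.18 to 0.032 for Nampt, -0.023 to 0.19 for Nmnat1, -0.16 to 0.090 for Nadsyn1, -0.044 to 0.25 for Nadk2, -0.21 to 0.43 for Nnmt and -0.17 to 0.019 for Slc25a51. In the block without number 5, Nampt gave 0.018, Nadsyn1 0.015 and Nnmt -0.031. IFNγ with FK866 against media ranged from -0.15 to 0.065 for Nmnat3, -0.073 to 0.46 for Naprt, -0.22 to 0.086 for Nadsyn1 and -0.098 to 0.099 for Slc25a51. In the block, Naprt gave -0.056 without number 3, Nmnat3 0.081 and Slc25a51 0.017 without number 4, and Slc25a51 0.037 without number 5. Depth limits Naprt, with 7 to 43 counts in a library.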
